A study of Mus musculus with 6 samples.

Results

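The tumour necrosis factor (TNF) receptor superfamily was described here through 10 genes read in CD8+ T cells, which are Fas, Tnfrsf1a, Tnfrsf10b, Tnfrsf25, Cd27, Tnfrsf1b, Tnfrsf4, Tnfrsf9, Tnfrsf14 and Tnfrsf18. They were chosen by name, and all 10 were found among the 22180 genes of the arrays, each through a probe set annotated to exactly 1 gene symbol. The samples were 3 arrays labelled Dot1l knockout and 3 arrays labelled wild type, all from C57BL/6 mice of an age not given in the labels. Mice with floxed Dot1l alleles had been bred to CD4-Cre mice, in which Cre is driven by the Cd4 promoter during T cell development in the thymus, a stage that CD4 and CD8 lineages share. Whether the wild type mice carried the floxed alleles or Cre is not given in the labels. CD8+ T cells were isolated untreated from peripheral lymph nodes and spleen, and total RNA was hybridised to Affymetrix whole-transcript arrays. The labels do not say whether arrays of a group came from separate mice, so p-values measure only how much these samples vary, possibly for technical reasons. The comparison asks how loss of Dot1l, a histone H3 methyltransferase, changes these transcripts in CD8+ T cells.

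Receptors of this superfamily are surface proteins with cysteine-rich extracellular repeats that bind trimeric ligands of the TNF superfamily. Members with a cytoplasmic death domain can recruit adaptors that activate caspases, whereas the others bind TRAF adaptors and activate NF-kB. On CD8 T cells, CD27 is carried by resting cells and supports survival after priming, while GITR, OX40 and CD137 (the products of Tnfrsf18, Tnfrsf4 and Tnfrsf9) are known as costimulatory receptors that increase after activation.

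Levels are RMA values on the log2 scale, so a difference of 1 is a 2-fold change, and levels of different genes are not compared because probes differ in brightness. A gene passed at a Benjamini-Hochberg adjusted p under 0.05 in limma over all 22180 genes, and the difference is always knockout-labelled minus wild type. Over all genes 1220 passed (5.5%), 954 higher (4.3%) and 266 lower (1.2%) in knockout-labelled arrays. The higher share of these calls was 78.2%, against 68.8% after median centring and 57.1% after another quantile normalization. In limma 3990 of all genes (17.99%) had an unadjusted p under 0.05. Among the 11775 genes with a group mean above 3.84, the 95th percentile of 1390 olfactory and vomeronasal receptor genes that served as a guide to background, 9.96% passed. Over the 22180 genes, r was 0.994 to 0.995 among knockout-labelled arrays, 0.989 to 0.993 among wild type arrays and 0.984 to 0.987 across the groups. Dot1l itself read 7.31, 7.26 and 7.33 in knockout-labelled arrays against 7.46, 6.96 and 7.18 in wild type arrays (difference 0.10, SE 0.13, limma adjusted p = 0.765). The labels do not name the floxed exon, and a probe set outside that exon checks nothing, so directions refer to arrays as labelled.

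The cells carried T cell transcripts in both groups. Of 7 measured T cell and CD8 identity genes all lay above the background guide. Of these 7, 1 passed, beside 4.3% higher and 1.2% lower among all genes. It was Cd5, a negative regulator of T cell receptor signals, which fell by 1.01 (SE 0.10, limma adjusted p = 0.000376). Cd4, of the helper lineage, averaged 3.86 ± 0.08 on knockout-labelled arrays against 3.79 ± 0.22 on wild type arrays (SD, n = 3 each), close to the guide of 3.84. B cell markers were higher in knockout-labelled arrays in 3 of 10 measured genes, beside 4.3% higher among all genes. These were Cd22 (1.29), Ms4a1 (1.13) and Cd79a (0.86), and 3 of the 10, the B cell factor gene Pax5 among them, lay below the guide in both groups. Ms4a1 was below the guide on all 3 wild type arrays, so the size of its difference is uncertain. Cd79a (limma adjusted p = 0.047) did not pass in 7 of 12 alternatives, among them 5 of the 6 fits without 1 array, where the limma adjusted p was 0.0127 without wild type replicate 3 and 0.0511 to 0.165 otherwise. Their summed linear signal was 353 to 399 in knockout-labelled arrays against 262 to 290 in wild type arrays. Among 5 measured NK cell markers, 7 dendritic cell markers and 8 monocyte and neutrophil markers, 1 each was higher, namely Tyrobp (0.43), Itgax (1.14) and Itgam (0.60). All 5 NK cell markers had a difference above 0 (median 0.43), against 2 of the 7 and 2 of the 8. Of these 5, Klrb1c (0.90) and Ncr1 (0.44) did not pass (limma adjusted p = 0.151 and 0.0719). Tyrobp passed in 0 of the 6 fits without 1 array (limma adjusted p of 0.0627 to 0.135), and Itgam in 2 of the 6, those without knockout-labelled replicate 3 or wild type replicate 2 (0.0130 to 0.0906 over the 6). Itgax passed in all 6. Their summed signals in knockout-labelled and wild type arrays were 146 to 172 against 116 to 142 for NK cells, 299.8 to 328 against 303 to 406 for dendritic cells, and 109 to 117 against 101 to 127 for monocytes and neutrophils. Of the dendritic and of the monocyte and neutrophil markers, 5 each were below the guide in both groups, including Flt3 and Cd14. The dendritic cell sum came mostly from Cd209a, which held 65.8% to 70.9% of it on knockout-labelled arrays and 76.4% to 81.6% on wild type arrays and differed by -0.37 (limma adjusted p = 0.192). For the 6 markers of stroma and endothelium 540 to 583 stood against 627 to 640, with 3 below the guide in both groups, and no gene passed in limma (1 had an unadjusted p under 0.05), with the smallest p for Pdgfrb (0.54) and Pecam1 (-0.21). Pecam1 alone held 86.5% to 87.2% of that sum on knockout-labelled arrays and 88.9% to 89.7% on wild type arrays. The part of these other cells in the results below was not tested. In RNA of bulk cells, fewer cells of a type and less RNA per cell cannot be told apart.

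Of the 10 receptors, 1 rose, 1 fell and 8 did not pass, beside 4.3% higher and 1.2% lower among all genes. Of the genes above the background guide, where all 10 lay, 9.96% passed. Tnfrsf18 (GITR) was 1.62-fold higher and Tnfrsf10b, which encodes a TRAIL death receptor, was 1.46-fold lower in knockout-labelled arrays. The median difference of the 10 genes was -0.06, against -0.01 over all 22180 genes, and the median size of the difference was 0.17 against 0.13. Each of the 10 genes had a 95% interval that lay within a 2-fold change in either direction. The groups did not overlap for 3 of the 10 (Tnfrsf18 above, Tnfrsf10b and Tnfrsf1a below), beside 23.5% of all genes without overlap, 13.7% above and 9.78% below. All 10 genes read above the background guide on all 6 arrays, and their mean levels lay between percentiles 56.0 and 99.1 of all genes. Nearest to the guide of 3.84 were Tnfrsf4 and Tnfrsf25, which averaged 4.27 and 4.29 on knockout-labelled arrays and 4.45 and 4.31 on wild type arrays. For these 2 a missed threshold, or an interval within a 2-fold change, says less.

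**Figure D1:**
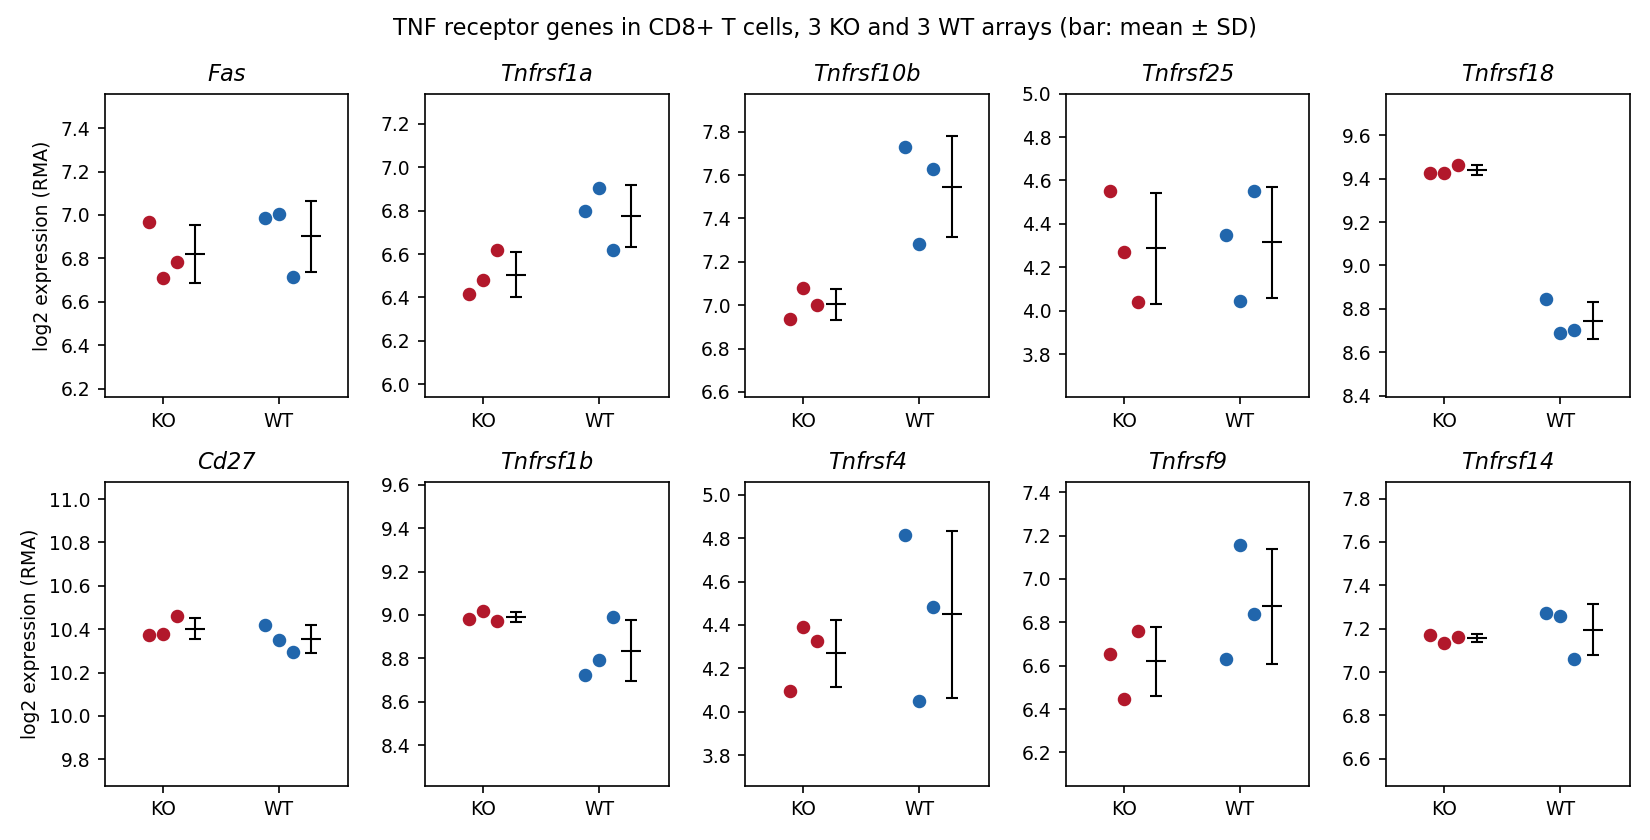
Log2 expression (RMA) of the 10 receptor genes on each array, with knockout-labelled arrays (KO) in red and wild type arrays (WT) in blue, and the mean ± SD of 3 arrays beside each group. In panels that each span 1.4 log2 units, Tnfrsf18 is higher on all 3 knockout-labelled arrays and Tnfrsf10b lower, while most other panels overlap.

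Among the costimulatory receptors, Tnfrsf18 showed the clearest difference. GITR marks regulatory T cells at high level and rises on conventional T cells after stimulation. It read 9.43, 9.43 and 9.47 in knockout-labelled arrays against 8.84, 8.69 and 8.70 in wild type arrays. All 3 knockout-labelled values were above all wild type values, and the distance between the groups was several times the spread within either. The difference was 0.69 (SE 0.10, 95% interval 0.47 to 0.92, limma adjusted p = 0.00339). It passed in all 6 fits that left out 1 array, at differences of 0.67 to 0.74 and adjusted p of 0.00656 to 0.0233. Of 6 markers of helper and regulatory T cells, Ikzf2 (Helios) was higher (1.16) and Cd40lg lower (-0.88), beside 4.3% higher and 1.2% lower among all genes. Cd40lg averaged 3.05 on knockout-labelled arrays and 3.93 on wild type arrays, near the background guide of 3.84. The helper lineage factor gene Zbtb7b differed by -0.06 (limma adjusted p = 0.835). The regulatory T cell factor gene Foxp3 averaged 4.83 ± 0.07 on knockout-labelled arrays against 5.09 ± 0.41 on wild type arrays (difference -0.25, limma adjusted p = 0.54). Ctla4, a checkpoint receptor of regulatory T cells, averaged 7.48 ± 0.09 on knockout-labelled arrays against 8.03 ± 0.30 on wild type arrays without overlap, and did not pass (difference -0.54, limma adjusted p = 0.0752). The summed signal of these 6 markers, in which Ikzf2 was higher and Ctla4 read lower, was 486 to 543 in knockout-labelled arrays against 409 to 508 in wild type arrays.

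The RefSeq table of GRCm38.p6 places 6 of the 10 genes on chromosome 4, with Tnfrsf4 and Tnfrsf18 next to each other apart from 2 noncoding entries, Gm16008 and Gm25982. The annotated span of the lncRNA gene Gm16008 includes all of Tnfrsf18. A separate probe set named for both Tnfrsf18 and Gm16008, which was not used for the test, read 4.29, 4.46 and 4.67 in knockout-labelled arrays against 4.09, 4.60 and 3.99 in wild type arrays. Those groups overlapped, so the difference rests on the probe set annotated to Tnfrsf18 alone.

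Tnfrsf4 (OX40), the neighbour, read 4.09, 4.39 and 4.32 in knockout-labelled arrays against 4.81, 4.05 and 4.48 in wild type arrays. The groups overlapped, with both the highest and the lowest of the 6 values in wild type arrays. Its difference was -0.18 (SE 0.18, 95% interval -0.59 to 0.23, limma adjusted p = 0.676), and it was 0.0048 without wild type replicate 1. Of the 5 measured genes on either side of this pair, none of the 10 passed in limma, with differences of -0.15 (Ttll10) to 0.40 (B3galt6). Among these 10, 1 had an unadjusted p under 0.05, beside 17.99% of all genes. These neighbours were taken by position, and whether the difference of Tnfrsf18 exceeds that of Tnfrsf4 was not tested.

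**Figure D2:**
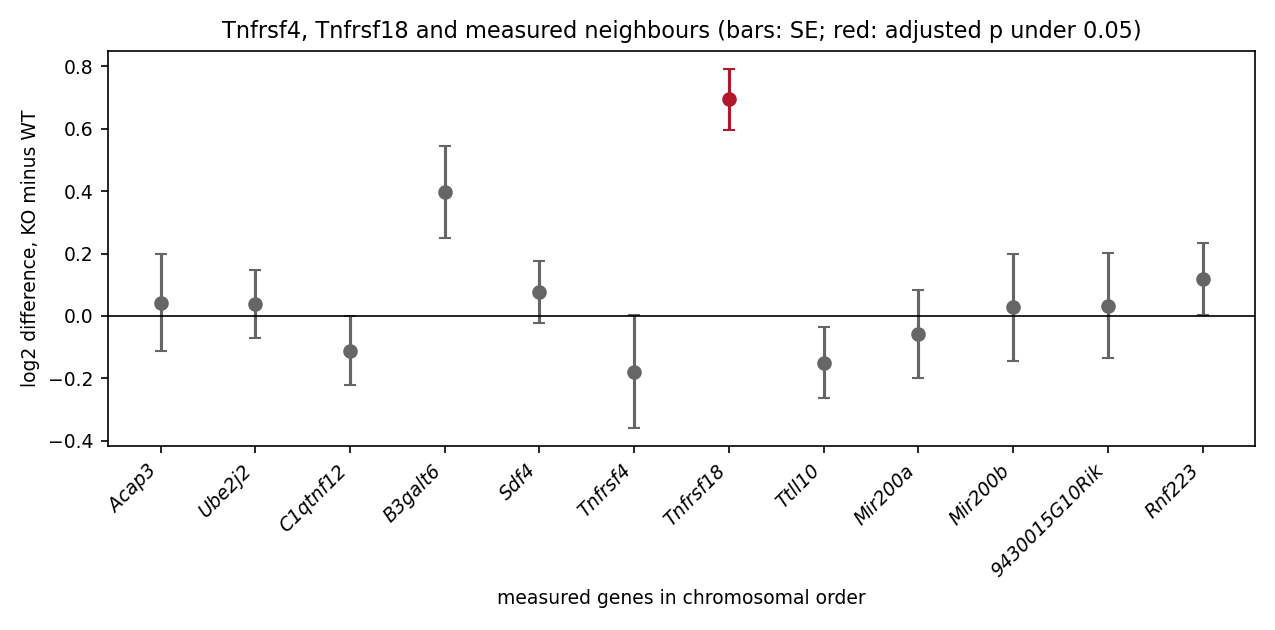
Log2 difference, knockout-labelled minus wild type, with SE, for Tnfrsf4, Tnfrsf18 and 5 measured genes on either side in chromosomal order. Tnfrsf18 (0.69, red) passed, and the 10 flanking genes lie between -0.15 and 0.40.

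The bases upstream of this pair of neighbours are given because 1 of them differed and the other did not pass. Both are from RefSeq, GRCm38.p6, plus strand, and end at the base before the annotated start of the gene, at chr4:156026072-156026321 for Tnfrsf18 and chr4:156013445-156013594 for Tnfrsf4. Capitals mark the letters TTCNNNGAA, a STAT-type motif.
Tnfrsf18: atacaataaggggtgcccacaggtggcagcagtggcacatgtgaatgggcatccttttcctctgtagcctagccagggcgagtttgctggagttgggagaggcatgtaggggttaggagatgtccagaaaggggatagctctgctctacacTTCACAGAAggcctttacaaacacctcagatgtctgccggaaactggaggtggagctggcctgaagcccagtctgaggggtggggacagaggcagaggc
Tnfrsf4: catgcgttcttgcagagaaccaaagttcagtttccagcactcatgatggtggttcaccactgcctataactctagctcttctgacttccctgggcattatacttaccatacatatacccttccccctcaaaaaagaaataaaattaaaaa

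Windows of 250 bases before a RefSeq start were searched on both strands for GGG, any 5 bases and CC (NF-kB type), TGANTCA (AP-1), TTCNNNGAA (STAT type) and ACCACA (RUNX). The table held 11 windows for 9 of the 10 genes, with no entry used for Tnfrsf10b. Of 32851 windows of all genes, 45.8% held the NF-kB letters, 6.75% the AP-1 letters, 7.02% the STAT letters and 14% the RUNX letters. Among the 9 receptor genes 7 held the first, 2 the second, 6 the third and 1 the last. These counts are per gene, with a match in any window of the gene, whereas the shares are per window. Tnfrsf9 and Tnfrsf25 had 2 windows each, so the counts and shares are not directly comparable. The STAT letters occurred in 6 of the 11 windows, and those matches are shown with up to 10 flanking bases. They are shown because Tnfrsf18, which rose, and 5 receptors that did not pass share them. For Tnfrsf9 and Tnfrsf25 the match lay in window 2 only, and window 1 of each gene held none. A match is a run of letters and not evidence of binding.
Tnfrsf18 (chr4:156026213-156026241, plus strand): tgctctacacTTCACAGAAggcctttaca
Fas (chr19:34290556-34290584, plus strand): tcaaagcgatTTCTGGGAAgacctgaata
Tnfrsf1a (chr6:125349473-125349497, plus strand): gcttccTTCCGTGAAattgacaaca
Tnfrsf1b (chr4:145247033-145247061, minus strand): agcgcattcaTTCCCGGAAgagatgctgg
Tnfrsf9 (chr4:150927853-150927881, plus strand): caacagctgaTTCCAAGAAacccttcaga
Tnfrsf25 (chr4:152116317-152116342, plus strand): gggcctccacTTCTCAGAAggcatgg

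The remaining costimulatory receptors did not pass. Cd27 read 10.37, 10.38 and 10.46 in knockout-labelled arrays against 10.42, 10.35 and 10.29 in wild type arrays. These groups overlapped, and the 95% interval of the difference of 0.05 ran from -0.17 to 0.27 (limma adjusted p = 0.856). Tnfrsf9 (CD137), which is induced by antigen, read 6.65, 6.45 and 6.76 against 6.63, 7.16 and 6.84 in wild type arrays, a difference of -0.25 (SE 0.15, 95% interval -0.59 to 0.08, limma adjusted p = 0.429). Tnfrsf1b, the TNF receptor that lacks a death domain, read 8.98, 9.02 and 8.97 in knockout-labelled arrays against 8.72, 8.79 and 8.99 in wild type arrays (difference 0.16, 95% interval -0.08 to 0.40, limma adjusted p = 0.511). The knockout-labelled values lay close together, and wild type replicate 3 fell among them. Tnfrsf14 (HVEM), which binds both TNF-type and immunoglobulin-type partners, read 7.17, 7.14 and 7.16 in knockout-labelled arrays against 7.27, 7.26 and 7.06 in wild type arrays (difference -0.04, 95% interval -0.27 to 0.19, limma adjusted p = 0.894).

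Of the 4 death-domain receptors, 1 fell and 3 did not pass. Tnfrsf10b encodes the mouse TRAIL receptor whose death domain can start apoptosis. It read 6.94, 7.08 and 7.00 in knockout-labelled arrays against 7.73, 7.28 and 7.63 in wild type arrays, and the groups did not overlap. Wild type replicate 2 lay nearest to the knockout-labelled values. The difference was -0.54 (SE 0.13, 95% interval -0.84 to -0.25, limma adjusted p = 0.0439), close to the threshold. Without wild type replicate 2 the difference was -0.67 (limma adjusted p = 0.00967), and leaving out any 1 of the other 5 arrays ended the call. The limma adjusted p was then 0.151, 0.105 and 0.146 without knockout-labelled replicate 1, 2 and 3, and 0.11 and 0.137 without wild type replicate 1 and 3. With the replicate number as a block the call was also lost (limma adjusted p = 0.088). Tnfrsf10b thus did not pass in 6 of 12 alternatives. Its difference stayed negative throughout, at -0.67 to -0.45.

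**Figure D3:**
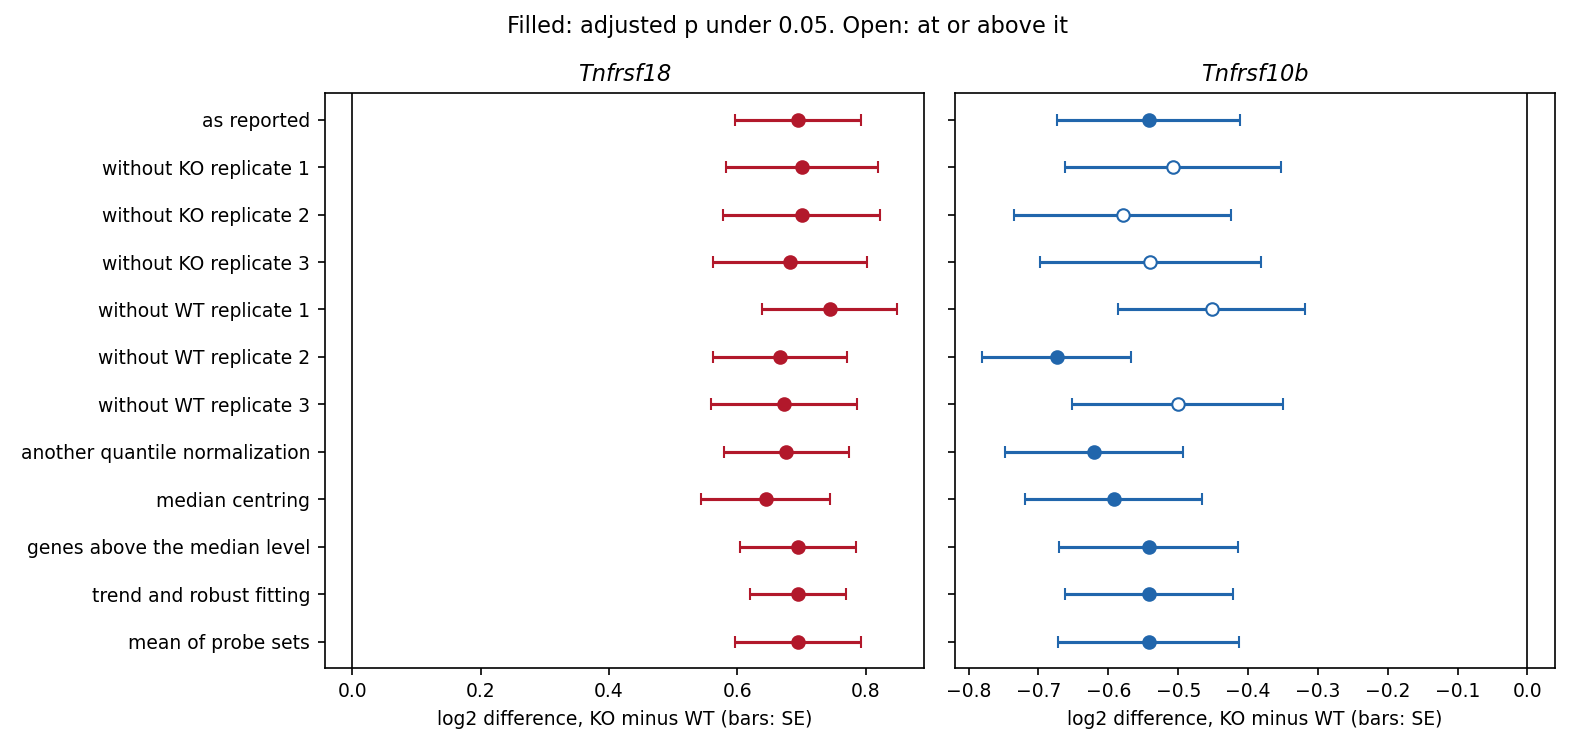
Log2 difference, knockout-labelled minus wild type, with SE, of Tnfrsf18 in red and Tnfrsf10b in blue, as reported and under other settings. Filled points, with an adjusted p under 0.05, include Tnfrsf18 in every setting shown, while Tnfrsf10b is open when any 1 array other than wild type replicate 2 is left out. The fit with the replicate number as a block is not shown, and Tnfrsf10b did not pass there.

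Tnfrsf1a, the death-domain receptor of TNF, read 6.42, 6.48 and 6.62 in knockout-labelled arrays against 6.80, 6.91 and 6.62 in wild type arrays. The groups met at 6.62 without overlap, and the difference of -0.27 did not pass (SE 0.11, 95% interval -0.53 to -0.01, limma adjusted p = 0.252). Fas, whose engagement by Fas ligand can kill activated T cells, read 6.97, 6.71 and 6.78 against 6.99, 7.00 and 6.71 in wild type arrays. Its difference was -0.08 (SE 0.12, 95% interval -0.36 to 0.19, limma adjusted p = 0.794), with overlapping groups. Tnfrsf25 (DR3), the death-domain receptor for the ligand TL1A, had nearly the same range in both groups, at 4.55, 4.27 and 4.04 in knockout-labelled arrays against 4.35, 4.05 and 4.55 in wild type arrays (difference -0.03, 95% interval -0.40 to 0.34, limma adjusted p = 0.961).

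Of 18 other receptor genes of the superfamily, 2 rose and 16 did not pass, beside 4.3% higher and 1.2% lower among all genes. Their median difference was 0.05 against -0.01 over all genes. Of the 18, 4 had an unadjusted p under 0.05, beside 17.99% of all genes. Among genes above the background guide 9.96% passed. Of the 16, 7 were below the background guide in both groups (Eda2r, Edar, Ngfr, Tnfrsf11a, Tnfrsf11b, Tnfrsf17 and Tnfrsf19), where a missed threshold says little. Tnfrsf23, a mouse decoy receptor for TRAIL, read 6.49, 5.46 and 5.84 in knockout-labelled arrays against 4.78, 5.04 and 4.48 in wild type arrays. All knockout-labelled values were above the wild type values although they varied widely, and the difference was 1.17 (SE 0.24, limma adjusted p = 0.0231). It did not pass without knockout-labelled replicate 3 or wild type replicate 1 or 3 (limma adjusted p = 0.0739, 0.0584 and 0.0895), or after another quantile normalization (0.0753). Its relatives at the same locus, Tnfrsf22 (-0.09) and Tnfrsf26 (0.25), did not pass, and signal shared between such close relatives was not tested. Tnfrsf12a (Fn14), the receptor for TWEAK, rose by 0.53 (SE 0.10, limma adjusted p = 0.019), with 5.69 ± 0.13 on knockout-labelled arrays and 5.17 ± 0.03 on wild type arrays. That call was lost without knockout-labelled replicate 1 or 3 or wild type replicate 1 or 3 (limma adjusted p = 0.084, 0.085, 0.0513 and 0.0572), and after another quantile normalization its difference was 0.32 (0.158). Of the 4 receptors on the list that B lineage cells carry, none passed in limma, and 0 of the 4 had an unadjusted p under 0.05. Cd40 differed by -0.08, Tnfrsf13b by -0.05, Tnfrsf17 by 0.07 and Tnfrsf13c by 0.34 (95% interval -0.0037 to 0.67, limma adjusted p = 0.284). Tnfrsf13c averaged 5.72 on knockout-labelled arrays and 5.39 on wild type arrays. In these arrays 3 of 10 B cell markers were higher, and the part of B cells was not tested.

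**Figure D4:**
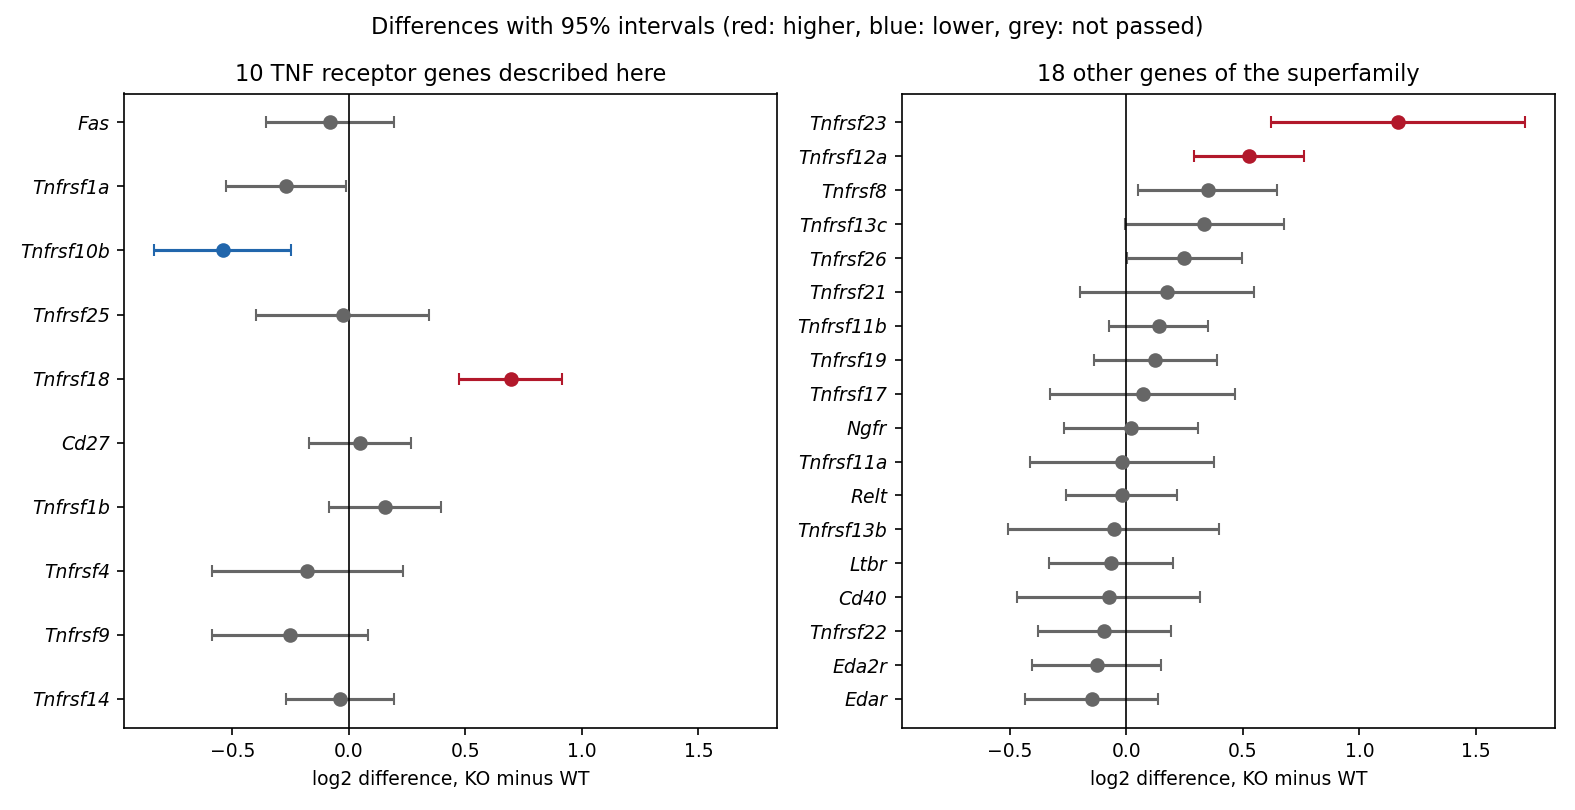
Log2 difference, knockout-labelled minus wild type, with 95% intervals, for the 10 receptor genes on the left and 18 other superfamily receptors on the right. Red is higher, blue is lower and grey did not pass, with Tnfrsf18 and Tnfrsf10b coloured on the left, and Tnfrsf23 and Tnfrsf12a on the right.

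Of 18 measured ligands and partners 8 changed, 6 higher and 2 lower, beside 4.3% higher and 1.2% lower among all genes. Among genes above the background guide 9.96% passed. The median difference of the 18 was 0.01 against -0.01 over all genes. The list holds 16 TNF-type ligands and the HVEM partners Btla and Cd160. Some of these ligands have receptors outside the 10, among them Tnfsf11 and Cd40lg, which are part of the 8. For the receptor Fas, with a difference of -0.08, the ligand gene Fasl read 9.10, 8.94 and 8.97 in knockout-labelled arrays against 6.53, 6.33 and 6.23 in wild type arrays (difference 2.64, SE 0.11, limma adjusted p = 1.1e-05). For the TRAIL receptor Tnfrsf10b (-0.54), the ligand gene Tnfsf10 (TRAIL) read 7.07, 7.16 and 7.12 against 6.23, 5.85 and 5.88 in wild type arrays (difference 1.13, SE 0.12, limma adjusted p = 0.000831). Receptor and ligand transcripts of this pair differed in opposite directions, each with groups that did not overlap.

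For OX40, with a difference of -0.18, the ligand gene Tnfsf4 read 4.71, 5.09 and 4.72 in knockout-labelled arrays against 3.12, 3.77 and 3.55 in wild type arrays. The difference was 1.36 (SE 0.18, limma adjusted p = 0.00218), and the wild type values were all below the background guide, so its size is uncertain. HVEM itself differed by -0.04, while its partners went both ways. Cd160, an immunoglobulin-type receptor of CD8 and NK cells, was 1.97-fold higher at 6.92 ± 0.28 on knockout-labelled arrays and 5.94 ± 0.19 on wild type arrays (difference 0.98, SE 0.16, limma adjusted p = 0.00626). Tnfsf14 (LIGHT), a TNF-type ligand of HVEM, was higher by 0.78 (SE 0.15, limma adjusted p = 0.015). The inhibitory receptor gene Btla was lower by 0.85 on the log2 scale (difference -0.85, SE 0.17, limma adjusted p = 0.0207). Tnfsf14 did not pass without knockout-labelled replicate 1 or 3 or wild type replicate 3 (limma adjusted p = 0.0667, 0.0705 and 0.062) or after another quantile normalization (0.0931). Btla did not pass without knockout-labelled replicate 1 or 3 or wild type replicate 1 or 3 (0.0778, 0.0982, 0.0562 and 0.0615).

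The remaining ligands of the 10 receptors did not pass. Tnf, which binds both Tnfrsf1a and Tnfrsf1b, read 6.58, 6.19 and 6.41 in knockout-labelled arrays against 6.06, 5.96 and 5.71 in wild type arrays. These groups did not overlap, and the difference of 0.48 missed the threshold (SE 0.14, limma adjusted p = 0.0817). Lta, a second ligand of both TNF receptors, differed by -0.35 (limma adjusted p = 0.282). The ligand genes of CD27, GITR and DR3 were below the background guide in both groups, and did not pass. Cd70 averaged 2.56 on knockout-labelled arrays and 2.51 on wild type arrays, Tnfsf18 2.21 on knockout-labelled arrays and 2.27 on wild type arrays, and Tnfsf15 3.06 on knockout-labelled arrays and 3.23 on wild type arrays (limma adjusted p = 0.871, 0.863 and 0.568). Tnfsf9, the ligand gene of CD137, averaged 3.99 ± 0.21 on knockout-labelled arrays and 4.02 ± 0.33 on wild type arrays (difference -0.03, limma adjusted p = 0.949). Of the ligand genes whose receptors lie outside the 10, Tnfsf11 (RANKL) rose by 1.77 (SE 0.11, limma adjusted p = 4.24e-05). Cd40lg fell by 0.88 (SE 0.15, limma adjusted p = 0.00801), with a mean below the guide on knockout-labelled arrays, at 3.05 ± 0.09 against 3.93 ± 0.29 on wild type arrays. Tnfsf8, Tnfsf13b, Eda and Ltb, the other ligands of receptors outside the 10, differed by -0.03, -0.06, -0.06 and 0.08 and did not pass.

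**Figure D5:**
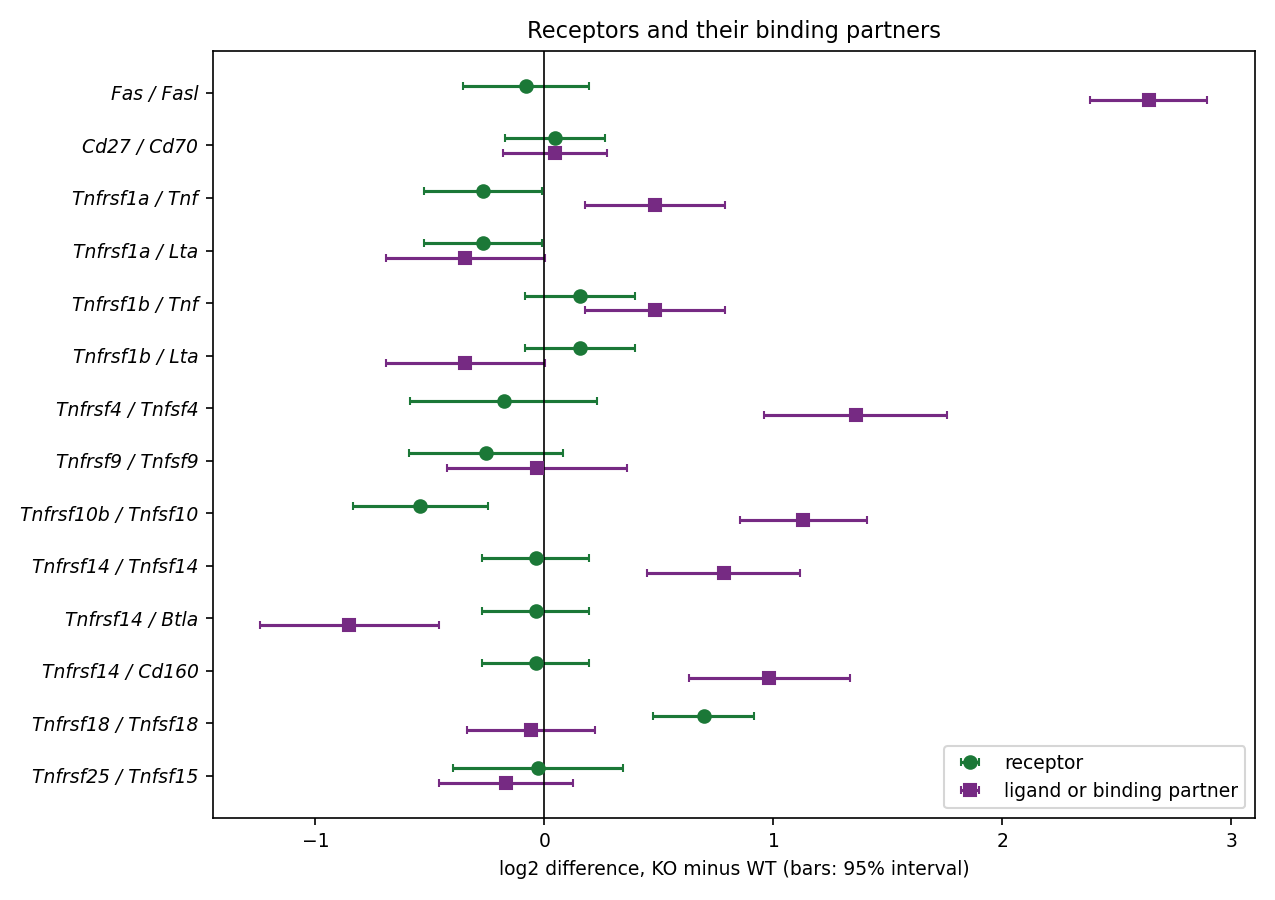
Log2 difference, knockout-labelled minus wild type, with 95% intervals, of each receptor (green circles) and a partner (purple squares). Fasl (2.64), Tnfsf4 (1.36), Tnfsf10 (1.13), Cd160 (0.98) and Tnfsf14 (0.78) lie right of 0 and Btla (-0.85) left, beside receptors between -0.54 and 0.69.

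Downstream of the receptors, 1 of 8 measured death signalling genes rose and 7 did not pass, beside 4.3% higher and 1.2% lower among all genes. None of these 8 had a group mean below the background guide, and of the genes above it 9.96% passed. Their median difference was 0.16, and 4 had an unadjusted p under 0.05, beside 17.99% of all genes. Mlkl, the executor of necroptosis, read 5.78, 6.53 and 6.14 in knockout-labelled arrays against 4.80, 4.96 and 5.02 in wild type arrays (difference 1.23, SE 0.17, limma adjusted p = 0.00355). The adaptor gene Fadd (0.40), the initiator caspase gene Casp8 (0.07), its inhibitor gene Cflar (-0.003) and Ripk3, the kinase that activates MLKL (-0.10), did not pass. Of 24 measured genes of TRAF adaptors and NF-kB signalling, 1 rose, 2 fell and 21 did not pass, with a median difference of 0.02. None of the 24 had a group mean below the background guide, and among genes above it 9.96% passed. Nfkbie, an inhibitor of NF-kB, read 7.22, 7.20 and 7.15 in knockout-labelled arrays against 5.95, 6.22 and 6.49 in wild type arrays (difference 0.97, SE 0.14, limma adjusted p = 0.00352). Traf5, an adaptor of CD27, OX40 and GITR, was 1.89-fold lower at 5.91, 5.55 and 5.75 in knockout-labelled arrays against 6.88, 6.44 and 6.65 in wild type arrays (difference -0.92, SE 0.14, limma adjusted p = 0.00543). Tnip1, a partner of the NF-kB inhibitor A20, fell by 0.47 (SE 0.10, limma adjusted p = 0.024), a call lost when any 1 knockout-labelled array or wild type replicate 3 was left out (0.0685 to 0.102).

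Of 15 measured genes of naive, activated and memory T cells, 8 rose, 1 fell and 6 did not pass, beside 4.3% higher and 1.2% lower among all genes. None of the 15 had a group mean below the background guide, and of the genes above it 9.96% passed. The median difference of the 15 was 0.55 against -0.01 over all genes. The T-box factor genes Eomes (1.27) and Tbx21 (0.93), the adhesion receptor gene Cd44 (0.77), the T cell receptor response gene Nr4a1 (0.77) and Ly6c2 (0.71) rose, and Lef1, a factor of naive T cells, fell by 0.63 (limma adjusted p of 9.86e-05 to 0.00537 for these 6). The early activation gene Cd69 differed by 0.14 (limma adjusted p = 0.509). The other 5 that did not pass, which resting naive or memory cells express, were Il7r (0.32), Foxo1 (0.26), Ccr7 (-0.26), Klf2 (-0.16) and S1pr1 (-0.05). The other genes of this list that passed were Cxcr3, Il2ra and Il2rb, at 0.79, 0.69 and 0.55.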

How the data were processed

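RNA of 3 knockout-labelled and 3 wild type samples was read on 1 array each. The deposited values are on the log2 scale. The submitters' processing notes name RMA and R 3.1.1 for them. RMA compresses differences of weakly expressed genes. No source used here states its settings, annotation or genome build. Of 41345 probe sets, 23521 named 1 gene, 1814 several and 16010 none in the platform annotation. Where a gene had several probe sets (1082 genes), the brightest by mean across the 6 arrays stood for it. Knockout-labelled minus wild type was tested on 22180 genes by lmFit and eBayes of limma 3.58.1 (R 4.3.3), without covariates and with Benjamini-Hochberg adjustment. The fit was tested on simulated data. The receptors, gene lists and alternatives were chosen with earlier results of these data known, so the counts are descriptions. Named were all 10 receptors, their partners, and in each list up to 6 genes that passed by smallest p. Other genes named were chosen after their values were seen. Summed signals add 2 to the power of the log2 values. Some listed genes were not analysed here, and counts are over the measured members of each list. Arrays give no count depth, and their number limits precision. Sequences are from RefSeq, GRCm38.p6.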

Additional observations from a re-analysis of the deposited data

How the results depend on the processing

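Across 12 alternatives, Tnfrsf18 passed in all and 8 of the 10 receptors passed in none. The number of receptors past the threshold was 2 as reported, 1 with the replicate number as a block, and 1 to 2 when 1 array was left out. For the other superfamily receptors it was 2 as reported, 1 with the replicate block, 0 after another quantile normalization (limma, 4 of 18 at an unadjusted p under 0.05 as deposited), and 0 to 2 when 1 array was left out. Over all genes 1220 passed as reported and 615 to 1307 when 1 array was left out, and the numbers without knockout-labelled replicate 1, 2 or 3 or wild type replicate 3 were 745, 696, 615 and 780. The cause of these changes was not tested, although fits without an array have fewer samples. The labels do not say whether same-numbered arrays were paired. Their deviations from the group means correlated at -0.16 to -0.07, and 0 of 3 knockout-labelled arrays correlated best with their own number. With 3 arrays per group these values cannot settle whether the arrays were paired. The replicate block left 912 genes past the threshold. Signs turned for values near 0. With median centring Cd27 was -0.0028 and Cd70 -0.0047, and without 1 array Cd70 ranged from -0.0047 to 0.10. Without 1 array, Tnfrsf4 ranged from -0.38 to 0.0048, Tnfrsf25 from -0.16 to 0.10, Tnfsf9 from -0.23 to 0.064, Tnfsf18 from -0.18 to 0.041 and Dot1l from -0.020 to 0.23. Of 47 named genes 29 kept both call and sign throughout.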

Other observations

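The replicates of the receptors lay closer together in knockout-labelled arrays for 9 of the 10 genes, with SDs of 0.02 to 0.26 against 0.06 to 0.38 in wild type arrays, beside 62.3% of all genes with the smaller SD in knockout-labelled arrays.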
